A study of Homo sapiens with 6 samples.

Results

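The 47 genes described here encode the eukaryotic translation initiation factors (eIFs) and the eIF4E-binding proteins, followed through the knockdown of BCAT1 in drug-resistant lung adenocarcinoma cells. They were chosen by name from a table of 60664 genes: of 138 names that begin with EIF and a digit from 1 to 6, the 4 EIF2AK kinases, 5 names with a hyphen, 77 names of the kind given to pseudogenes and 5 genes with a mean under 1 TPM were left out. TPM expresses a transcript's abundance relative to its length and to the total of the library. Levels can thus be compared between genes, and between libraries only as shares. The members comprise 3 subunits of eIF2, EIF2A and EIF2D, 5 subunits of eIF2B, 14 genes of eIF3, 11 of the eIF4 group, 9 of the eIF1, eIF5 and eIF6 families, and 3 eIF4E-binding proteins (EIF4EBP1, EIF4EBP2 and EIF4EBP3).

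Translation begins when eIF2 carries the initiator tRNA to the small ribosomal subunit in its GTP-bound form, and eIF2B recharges eIF2 by exchanging GDP for GTP. Phosphorylation of eIF2 by the EIF2AK kinases blocks that exchange, which lowers general protein synthesis and favours stress-response mRNAs. eIF3 is the large scaffold on the small subunit, eIF4E, eIF4G and eIF4A bind the mRNA cap, bridge to the ribosome and unwind the leader, and the 4E-binding proteins hold eIF4E away from eIF4G until mTOR phosphorylates them.

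The cells are 67R, a line derived from NCI-H1975 non-small cell lung cancer cells by exposure to rising doses of the EGFR inhibitor ASK120067. Cells received either negative control siRNA (NC, 3 libraries) or siRNA directed at BCAT1 (siBCAT1, 3 libraries), and both groups therefore share the drug-resistant background of 1 derived line. BCAT1 is the cytosolic branched-chain amino acid transaminase, which acts on leucine, isoleucine and valine. In the study's methods siBCAT1 is the short name of one of its siRNAs, siBCAT1-2. The labels do not tell whether the libraries of a group came from separate cultures, so p-values measure the spread between these libraries, which may be technical.

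In what follows, values of single libraries are given in the order of replicates 1, 2 and 3. BCAT1 itself was at 42.7, 42.2 and 29.8 TPM in NC and at 8.78, 7.10 and 8.0 TPM in siBCAT1, a log2 fold change of -2.12. Each library summed to between 992512 and 995593 TPM with 23152 to 25043 genes above 0, and since the table holds no read counts the depth behind a value is unknown. Of 10 epithelial and lung markers 5 were at 1 TPM or more in all 6 libraries, led by the keratins KRT8 and KRT7, while the lung lineage markers NKX2-1, NAPSA and SFTPB were under 1 TPM in every library. The summed level of the 10 markers was 2564 to 2970 TPM in NC and 1664 to 1952 TPM in siBCAT1. The keratins, which make up most of it, EGFR and CDH1 were lower in all siBCAT1 libraries (CDH1 12.5 to 28.8 against 0.85 to 4.3 TPM). EPCAM went the other way (0.91 to 1.55 against 1.96 to 2.61 TPM). Of 6 markers of immune, endothelial and fibroblast cells, PTPRC, PECAM1 and VWF were under 1 TPM throughout, and the 6 summed to 45.8 to 61.1 TPM in NC and 63.4 to 71.4 TPM in siBCAT1. Within that sum CD68 was higher in siBCAT1 (29.1 to 37.0 against 52.1 to 59.95 TPM), while the fibroblast markers COL1A1 (12.2 to 17.7 against 8.74 to 10.6 TPM) and PDGFRB (4.52 to 6.49 against 2.13 to 3.09 TPM) were lower. The part of these shifts in the results below was not tested.

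Most initiation factors that changed after BCAT1 knockdown were higher. Among the 47 members 15 rose (31.9%), against 16.7% of the 14286 genes tested, and 1 fell (2.13%), against 10.4% of all genes, at an adjusted p under 0.05 in limma's moderated test on log2(TPM + 1) with Benjamini-Hochberg adjustment over all genes tested. The other 31 members did not pass. With some other scalings or corrections of the values, given at the end, 6 members fell, about as often as all genes did there. The libraries of the 2 groups did not overlap, with siBCAT1 higher, for 18 members (38.3%, against 26.1% of all genes), and with siBCAT1 lower for 6 members (12.8%, against 18% of all genes). The median log2 fold change was 0.15 over the members and 0.04 over all genes tested. A fold change on this scale understates the change of weakly expressed genes, and an exact permutation test (two-sided) on 1 gene in so few libraries cannot give a p below 0.1.

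**Figure D1:**
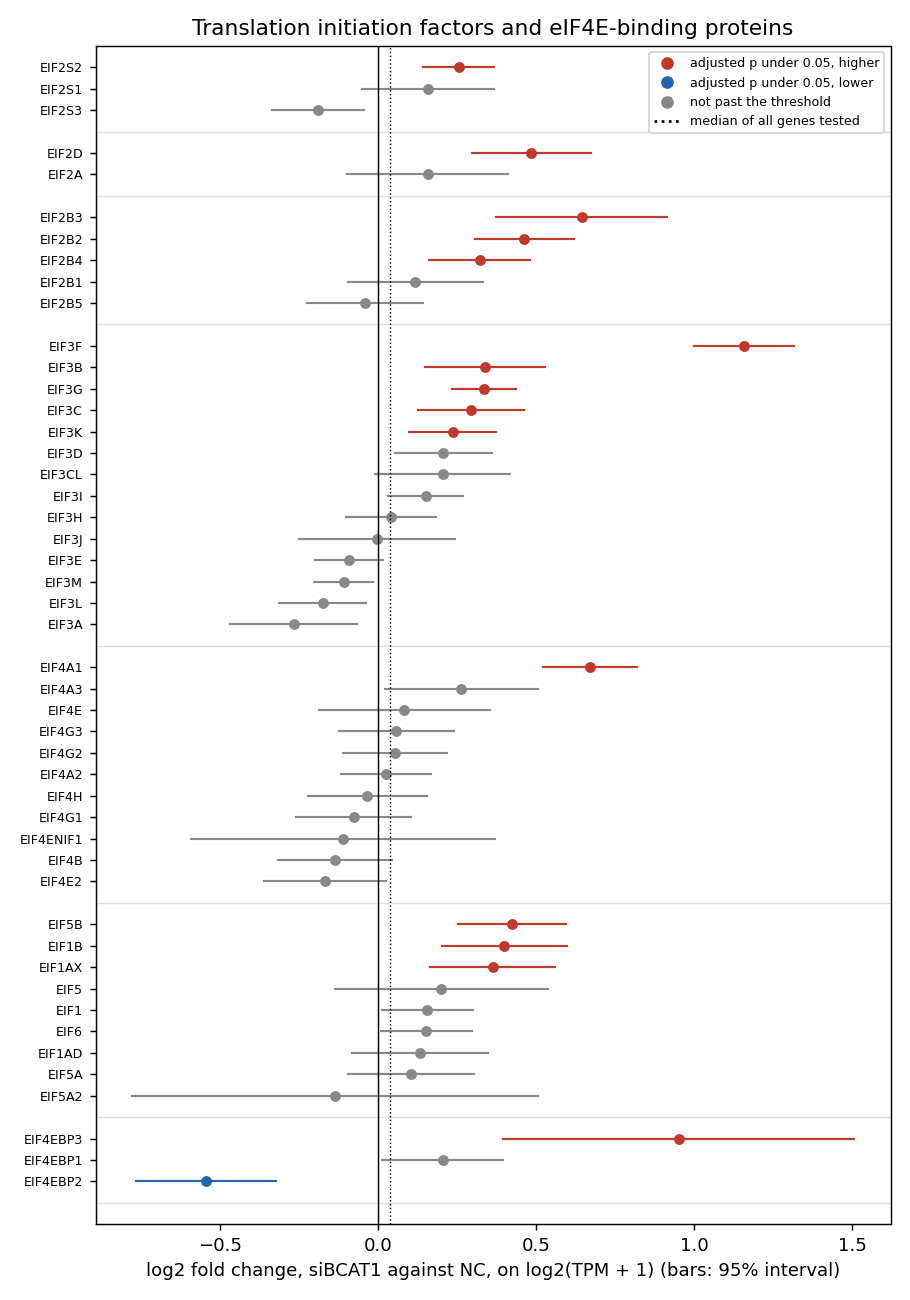
Log2 fold change of each of the 47 members in siBCAT1 against NC (points, with 95% intervals from limma) on the log2(TPM + 1) scale, by factor group and ordered within each group. EIF3F at 1.16 lies farthest to the right, EIF4EBP2 at -0.54 farthest to the left, and the dotted line marks the median of all genes tested at 0.04.

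The members are abundant transcripts. Their mean over the 6 libraries had a median of 169.6 TPM, where the median of all genes tested was 13.9 TPM, and it ran from 3.52 TPM for EIF4EBP3 to 1721 TPM for EIF4A1. Together they took 1.17%, 1.29% and 1.19% of the TPM of NC replicates 1, 2 and 3 and 1.38%, 1.40% and 1.42% of siBCAT1 replicates 1, 2 and 3, so the groups did not overlap. As a sum this was 12092 ± 649 TPM in NC and 13944 ± 221 TPM in siBCAT1 (SD, n = 3 each). EIF4A1 accounted for 42.2% of the net difference of 1852 TPM, EIF3F for 9.27% and EIF3G for 8.86%. Without EIF4A1 and EIF3F the count of members that rose was 13 of 45 (28.9%, against 16.7% of all genes). The median log2 fold change stayed at 0.15. TPM is a share of the RNA in a library, so a higher share cannot be told apart from less RNA of other genes per cell.

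The largest rise was that of EIF3F (ENSG00000175390, chr11:7970251-8001862, plus strand, GRCh38), an MPN-domain subunit of eIF3. EIF3F was at 128.9, 139.9 and 147.0 TPM in NC and at 309.6, 294.7 and 326.7 TPM in siBCAT1. The lowest siBCAT1 library was well above the highest NC library, and the ratio of the means was 2.24. The log2 fold change was 1.16 (SE, the standard error, 0.067, 95% interval 1.00 to 1.32, adjusted p = 0.000164), the 225th highest of the 14286 genes tested.

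EIF4A1 (ENSG00000161960, chr17:7572706-7579005, plus strand), the RNA helicase of the cap-binding complex, was the most abundant member in siBCAT1. It was at 1248.5, 1464 and 1277 TPM in NC and at 2048, 2131 and 2158 TPM in siBCAT1. The siBCAT1 libraries lay close together and all above the NC libraries. The log2 fold change was 0.67 (SE 0.064, 95% interval 0.52 to 0.82, adjusted p = 0.000706). EIF3F and EIF4A1 kept their calls under all alternatives tried, with log2 fold changes of 1.06 to 1.2 and of 0.57 to 0.75. The rows examined that could share reads with them were small beside them. The annotated pseudogenes of EIF3F summed to 0.92 TPM and those of EIF4A1 to 0.055 TPM. The readthrough transcript SENP3-EIF4A1 was at 10.9 to 12.1 TPM in NC and 15.1 to 15.6 TPM in siBCAT1. AC016876.2, SNORA48, SNORA67 and SNORD10 also overlap EIF4A1 on its strand, and their levels were not examined.

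The 250 bases upstream of the RefSeq transcription start of these genes (GRCh38.p14, 5′ to 3′, ending 1 base before the start) are shown because EIF3F and EIF4A1 had the largest rise in ratio and in TPM among members above 100 TPM. Capitals mark CCAAT boxes (CCAAT) and the E-box (CACGTG) in EIF3F, at chr11:7987087-7987336, and CCAAT boxes and GC boxes (GGGCGG) in EIF4A1, at chr17:7572575-7572824, both on the plus strand.
EIF3F: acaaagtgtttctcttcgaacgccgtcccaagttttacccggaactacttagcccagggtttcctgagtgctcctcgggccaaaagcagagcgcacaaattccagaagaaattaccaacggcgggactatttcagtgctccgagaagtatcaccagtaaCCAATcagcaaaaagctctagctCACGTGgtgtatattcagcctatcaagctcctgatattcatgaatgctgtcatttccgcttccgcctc
EIF4A1: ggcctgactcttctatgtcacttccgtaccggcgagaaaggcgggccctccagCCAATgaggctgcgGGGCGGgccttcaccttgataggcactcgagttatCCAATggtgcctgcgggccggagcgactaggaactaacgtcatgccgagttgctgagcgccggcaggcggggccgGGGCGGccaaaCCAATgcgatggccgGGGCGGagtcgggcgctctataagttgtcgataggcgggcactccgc
In EIF3F the CCAAT box began at position -91 and the E-box at -68, counted back from the start. EIF4A1 held CCAAT boxes at -197, -148 and -62 and GC boxes at -183, -73 and -47, with no E-box. These matches are letters in a window and not evidence of a bound factor.

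The same search, on both strands, covered 39 of the 47 members, with 52 windows since some genes have several starts. EIF2S2 and EIF3G, which rose, had no window. Shares below count windows, so a gene with several starts, such as EIF5A, weighs more. The 14 windows of members that rose belong to 13 genes, and the 37 windows of members that did not pass to 25 genes. None of the motifs contains another, though neighbouring matches can share letters, which was not counted. The E-box was in 5 of the 14 windows of members that rose (35.7%), in those of EIF1B, EIF2B3, EIF3F, EIF3K and EIF4EBP3. It was in 6 of 37 windows of members that did not pass (16.2%), each of a different gene, and in 6.34% of all 35116 windows in the table. All windows here include those of genes under the filter, so their shares are not those of genes as abundant as the members. Members that did not pass also exceeded them for the E-box and the GC box. The CCAAT box was in 50% of the windows of members that rose, in 29.7% of those that did not pass and in 32% of all windows. The GC box was in 71.4%, 62.2% and 42.6% of these windows. The ETS motif (CCGGAAG) was in 0 of 14 windows of members that rose, in 9 of 37 of those that did not pass (24.3%) and in 8.52% of all windows. The C/EBP-ATF element (TGATGNAAN), which the amino acid response factor ATF4 is known to bind, was in no member window and in 3.13% of all windows. At so low a share few matches could be met in 52 windows, so the absence cannot be read as a result about the members. Sites outside the 250 bases were not searched, and EIF4EBP1 was among the members without a window.

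Among the eIF2 subunits 1 of 3 rose (33.3%, against 16.7% of all genes). EIF2S2, the beta subunit, was at 213, 207 and 205 TPM in NC and at 257, 245 and 244 TPM in siBCAT1. The groups did not overlap, and the log2 fold change was 0.25 (SE 0.048, adjusted p = 0.00882). EIF2S1, the alpha subunit that carries the regulatory phosphorylation site, was the most abundant of the 3. Its level was 722, 888 and 714 TPM in NC and 857, 906 and 819 TPM in siBCAT1, with NC replicate 2 inside the siBCAT1 range (log2 fold change 0.16, adjusted p = 0.233). EIF2S3, the gamma subunit that binds GTP and the initiator tRNA, was lower in all siBCAT1 libraries, at 194 ± 13.6 TPM in NC and 169 ± 2.04 TPM in siBCAT1 (SD, n = 3 each), and did not pass (log2 fold change -0.19, adjusted p = 0.0586). The median of the 3 subunits was 0.16. EIF2S1 passed without NC replicate 2 (0.26, adjusted p = 0.0168). EIF2S3 passed in the lower direction under 7 of 17 alternatives, among them median-ratio scaling (-0.24, adjusted p = 0.0443), quantile normalization (-0.30, adjusted p = 0.0107) and the set without NC replicate 3 (-0.24, adjusted p = 0.0493).

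EIF2A and EIF2D share the name and are not subunits of eIF2. EIF2D, which delivers tRNA to the ribosome without GTP and takes part in recycling, was at 17.5, 18.4 and 16.6 TPM in NC and at 25.7, 23.5 and 25.4 TPM in siBCAT1. All siBCAT1 libraries were higher, with a log2 fold change of 0.48 (SE 0.080, adjusted p = 0.00527). EIF2A, an alternative initiator tRNA-binding protein, was at 80.35, 103.55 and 84.6 TPM in NC and at 105.01, 103.1 and 90.35 TPM in siBCAT1, and the groups overlapped (log2 fold change 0.16, adjusted p = 0.329).

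In eIF2B, the exchange factor of eIF2, 3 of 5 subunits rose (60%, against 16.7% of all genes). The median log2 fold change of the 5 was 0.32. EIF2B3, the gamma subunit, was at 20.9, 26.8 and 24.4 TPM in NC and at 34.3, 37.8 and 42.2 TPM in siBCAT1 (log2 fold change 0.64, SE 0.12, adjusted p = 0.00731). EIF2B2, the beta subunit and the most abundant of the 5, was at 140.5, 159 and 140.6 TPM in NC and at 196, 202 and 209.98 TPM in siBCAT1 (0.46, SE 0.067, adjusted p = 0.00318). EIF2B4, the delta subunit, was at 35.3, 35.8 and 33.1 TPM in NC and at 41.9, 44.1 and 44.8 TPM in siBCAT1 (0.32, SE 0.068, adjusted p = 0.0139). For all 3 genes the lowest siBCAT1 library lay above the highest NC library. EIF2B5, the catalytic epsilon subunit, overlapped at 36.6 ± 0.703 TPM in NC and 35.6 ± 2.79 TPM in siBCAT1 (log2 fold change -0.04, 95% interval -0.23 to 0.14, adjusted p = 0.725), and EIF2B1, the alpha subunit, overlapped too (0.12, 95% interval -0.10 to 0.33, adjusted p = 0.378). The ratio of EIF2B3 to EIF2B5 was 0.559, 0.734 and 0.678 in NC and 1.05, 0.993 and 1.16 in siBCAT1, so the catalytic subunit exceeded the gamma subunit in every NC library and in 1 siBCAT1 library.

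**Figure D2:**
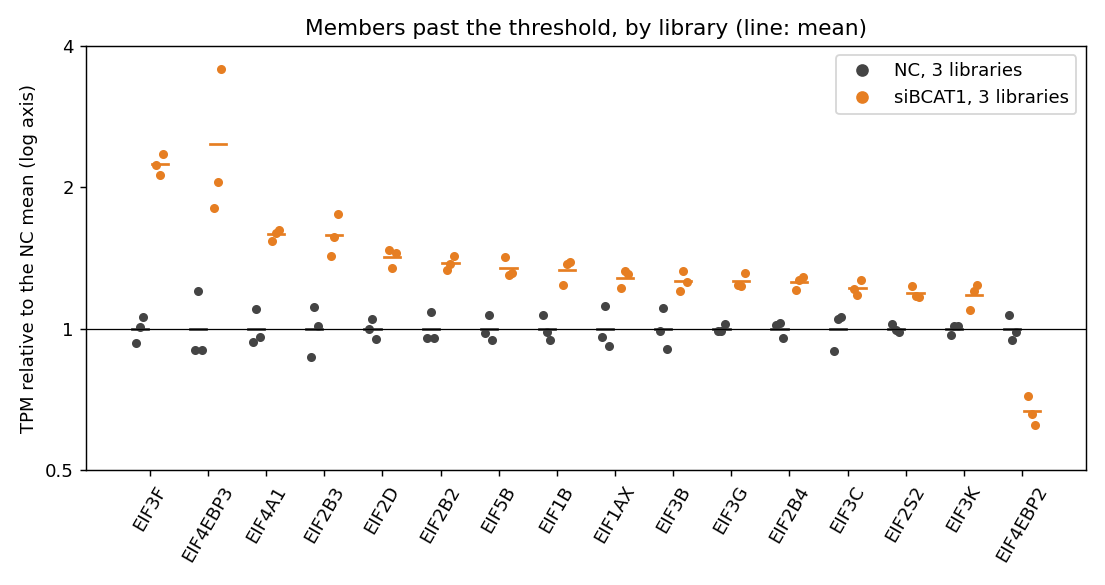
TPM of the 16 members past the threshold in each of the 6 libraries, divided by the NC mean of that gene, on a log axis (points for libraries, lines for group means). Every siBCAT1 point of the 15 members that rose lies above all NC points of that gene, and those of EIF4EBP2 lie below.

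Of the 14 eIF3 genes 5 rose (35.7%, against 16.7% of all genes) and 9 did not pass. The libraries did not overlap for 7 genes with siBCAT1 higher (50%, against 26.1% of all genes) and for 4 with siBCAT1 lower (28.6%, against 18% of all genes). After EIF3F the rises were smaller and close to each other. EIF3G, an RNA-binding subunit and the most abundant eIF3 gene, was at 621, 621 and 642 TPM in NC and at 779, 774 and 824 TPM in siBCAT1 (log2 fold change 0.33, SE 0.043, adjusted p = 0.00211). EIF3B, the scaffold that EIF3G and EIF3I bind, was at 165, 184 and 151 TPM in NC and at 200.3, 221 and 209.7 TPM in siBCAT1 (0.34, SE 0.081, adjusted p = 0.0216). Neither gene overlapped between the groups. EIF3I, the remaining member of that module, was higher in all siBCAT1 libraries and did not pass (419 ± 10.7 against 465 ± 22.5 TPM, 0.15, adjusted p = 0.0674). EIF3D, which can bind the cap of selected mRNAs, also lay above all NC libraries without passing (201 ± 12.1 against 232 ± 12.1 TPM, 0.21, adjusted p = 0.0543).

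EIF3C, a core subunit, was at 455, 533 and 537 TPM in NC and at 618, 601 and 646 TPM in siBCAT1 (log2 fold change 0.29, SE 0.072, adjusted p = 0.0233). Its near-identical copy EIF3CL was at 105.2, 95.4 and 83.3 TPM in NC and at 107.9, 104.5 and 113.9 TPM in siBCAT1 (0.20, adjusted p = 0.141). How reads were divided between the copies is uncertain, and the sum of both gave a log2 fold change of 0.28 (SE 0.057, adjusted p = 0.0126). EIF3K, the smallest core subunit, was at 310.4, 325 and 325 TPM in NC and at 351, 385 and 397 TPM in siBCAT1 (0.24, SE 0.058, adjusted p = 0.0239). All siBCAT1 libraries of EIF3C and EIF3K lay above all NC libraries.

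The subunits with lower levels after the knockdown were EIF3A, EIF3E, EIF3L and EIF3M, which did not overlap between groups and did not pass the test. EIF3A, the largest subunit and the base of the core, was at 75.2, 82.4 and 67.0 TPM in NC and at 60.2, 64.4 and 61.0 TPM in siBCAT1 (log2 fold change -0.27, adjusted p = 0.0561). EIF3L was at 270.04 ± 15.8 TPM in NC and 239 ± 7.26 TPM in siBCAT1 (-0.18, adjusted p = 0.0638), EIF3M at 615 ± 15.0 and 570.2 ± 6.66 TPM (-0.11, adjusted p = 0.0839) and EIF3E at 256 ± 7.20 and 239.8 ± 1.79 TPM (-0.09, adjusted p = 0.174). EIF3H (0.04, adjusted p = 0.668) and EIF3J, a loosely bound subunit (-0.0036, adjusted p = 0.984), overlapped. Of the 8 PCI- and MPN-domain subunits that form the core, EIF3C, EIF3F and EIF3K rose (37.5%, against 16.7% of all genes). The median log2 fold change of these 8 was -0.03, while EIF3B, EIF3G and EIF3I had a median of 0.33.

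In order of level EIF3F moved from the 11th to the 7th place among the 14 eIF3 genes. In NC it stood between EIF3B (167 ± 16.6 TPM) and EIF3J (110.3 ± 14.1 TPM) at 139 ± 9.10 TPM, and in siBCAT1 between EIF3H (346 ± 11.2 TPM) and EIF3E (239.8 ± 1.79 TPM) at 310.3 ± 16.0 TPM (SD, n = 3 each). Its libraries overlapped with those of neither neighbour in either group. Neighbours that did overlap in NC were EIF3G and EIF3M, EIF3H and EIF3K, EIF3L and EIF3E, and EIF3J and EIF3CL. EIF3A was the lowest in both groups, at 74.9 ± 7.67 and 61.9 ± 2.25 TPM.

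**Figure D3:**
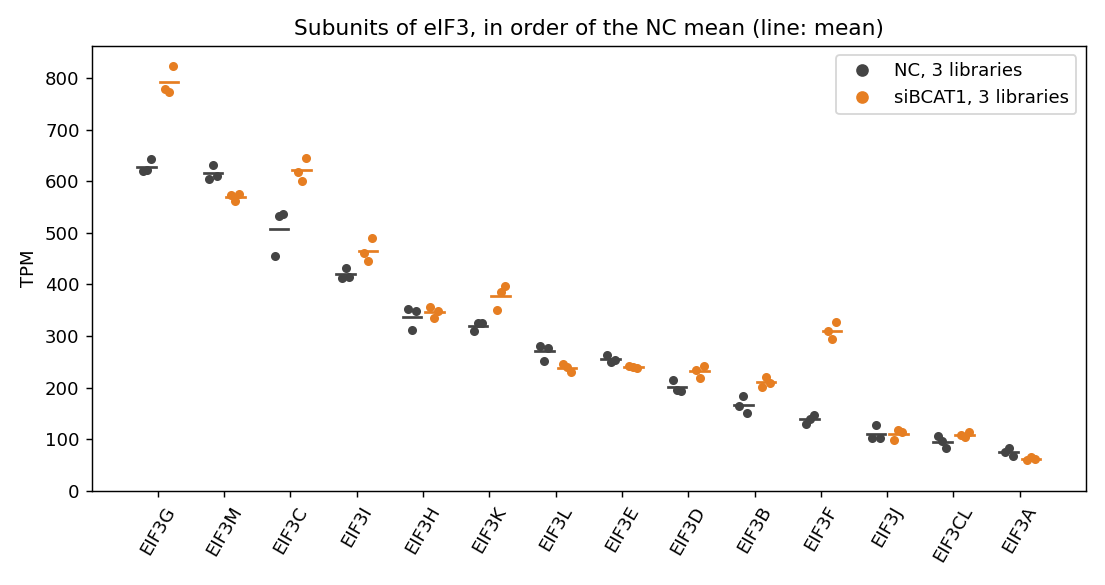
TPM of the 14 eIF3 genes in the 3 NC and 3 siBCAT1 libraries (points, with lines at the group means), in order of the NC mean. EIF3F leaves its neighbours, from 139 to 310.3 TPM on average, whereas EIF3A, EIF3E, EIF3L and EIF3M lie lower in siBCAT1.

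The smaller calls in eIF3 and eIF1 depended on the processing and on single libraries. With all libraries kept, EIF3C and EIF3K did not pass with median-ratio scaling (adjusted p = 0.109 and 0.146), the length correction (0.0917 and 0.124), the GC content and length correction (0.0861 and 0.138), no filter or limma without trend. EIF3B did not pass with quantile normalization (adjusted p = 0.0741), the GC content and length correction, no filter or limma without trend, and EIF1AX not with quantile normalization (adjusted p = 0.0583) or no filter. EIF3B did not pass without any 1 of NC replicates 1 and 3 or siBCAT1 replicates 1, 2 and 3 (log2 fold change 0.27 to 0.37, adjusted p = 0.0505 to 0.0812). EIF3C did not pass without siBCAT1 replicate 1, 2 or 3 (0.26 to 0.32, adjusted p = 0.0593 to 0.0848), and EIF3K not without NC replicate 1 or 3 or siBCAT1 replicate 2 or 3 (0.20 to 0.25, adjusted p = 0.0638 to 0.0844). All of these calls lay near the threshold. EIF1AX did not pass without NC replicate 1 or 3 or siBCAT1 replicate 2 or 3 (0.30 to 0.35, adjusted p = 0.0640 to 0.0765), and EIF1B not without siBCAT1 replicate 2 or 3 (0.37 to 0.38, adjusted p = 0.0520 to 0.0547).

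Some eIF3 genes that did not pass as deposited passed otherwise. EIF3A passed in the lower direction under 8 of 17 alternatives, among them median-ratio scaling (-0.32, adjusted p = 0.0341), quantile normalization (-0.36, adjusted p = 0.0199) and the set without NC replicate 3 (-0.34, adjusted p = 0.0309). EIF3L did so under 7 of 17, among them median-ratio scaling (-0.22, adjusted p = 0.0360), the length correction (-0.21, adjusted p = 0.0298) and the set without NC replicate 2 (-0.22, adjusted p = 0.0187). EIF3M passed in the lower direction with quantile normalization (-0.12, adjusted p = 0.0428), and EIF3D in the higher direction under 3 alternatives, 1 of them without NC replicate 1 (0.26, adjusted p = 0.0463). No direction changed among these genes.

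In the eIF4 group EIF4A1 alone passed on the values as deposited (9.09%, against 16.7% of all genes that rose). The libraries of the other 10 genes overlapped between the groups. The median log2 fold change of the 11 genes was 0.02 as deposited and below 0 after median-ratio scaling (-0.02) or quantile normalization (-0.10). EIF4A2, the close paralog of EIF4A1, was at 159, 174 and 157 TPM in NC and at 168, 169.99 and 159.6 TPM in siBCAT1 (log2 fold change 0.02, 95% interval -0.12 to 0.17, adjusted p = 0.799). The ratio of EIF4A1 to EIF4A2 was 7.85, 8.43 and 8.14 in NC and 12.2, 12.5 and 13.5 in siBCAT1, and the groups did not overlap. EIF4A3, the helicase of the exon junction complex, was at 145, 153 and 162 TPM in NC and at 158, 192 and 206 TPM in siBCAT1 (0.26, adjusted p = 0.102), and it passed without siBCAT1 replicate 1 (0.38, adjusted p = 0.0250).

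The cap-binding protein EIF4E was at 74.4, 86.2 and 62.5 TPM in NC and at 73.9, 79.6 and 81.2 TPM in siBCAT1 (log2 fold change 0.08, 95% interval -0.19 to 0.35, adjusted p = 0.637). Its homolog EIF4E2, a repressor when bound with GIGYF2, was at 176, 179 and 152 TPM in NC and at 162, 144 and 144 TPM in siBCAT1 (-0.17, adjusted p = 0.172), and it passed in the lower direction with quantile normalization (-0.29, adjusted p = 0.0422) and the GC content and length correction (-0.28, adjusted p = 0.0288). The range of both genes in siBCAT1 met that in NC, and EIF4E3 was under the filter with a mean of 0.288 TPM. The scaffold EIF4G1 was at 327, 386 and 330.4 TPM in NC and at 309, 344 and 334 TPM in siBCAT1 (-0.08, adjusted p = 0.493). EIF4G2, which lacks the eIF4E-binding site, was at 429, 475 and 405 TPM in NC and at 430.4, 477 and 449 TPM in siBCAT1 (0.05, adjusted p = 0.620). EIF4G3, a minor paralog of EIF4G1, was at 19.2, 18.4 and 18.6 TPM in NC and at 20.6, 19.4 and 18.6 TPM in siBCAT1 (0.06, adjusted p = 0.626). None of the 3 scaffolds separated the groups, although the ratio of EIF4G1 to EIF4G2 was lower in all siBCAT1 libraries (0.797 ± 0.0293 in NC and 0.728 ± 0.0147 in siBCAT1, SD, n = 3 each).

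The helicase cofactors EIF4B (log2 fold change -0.14, adjusted p = 0.232) and EIF4H (-0.03, adjusted p = 0.785) and the eIF4E transporter EIF4ENIF1 (-0.11, adjusted p = 0.726) overlapped as well. EIF4B passed in the lower direction with the GC content and length correction (-0.23, adjusted p = 0.0336). EIF4ENIF1 had the widest interval of the eIF4 genes, from -0.59 to 0.37, with NC libraries at 38.0, 42.5 and 23.2 TPM. Without the last of these, NC replicate 3, EIF4ENIF1 passed in the lower direction (-0.37, adjusted p = 0.0455).

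**Figure D4:**
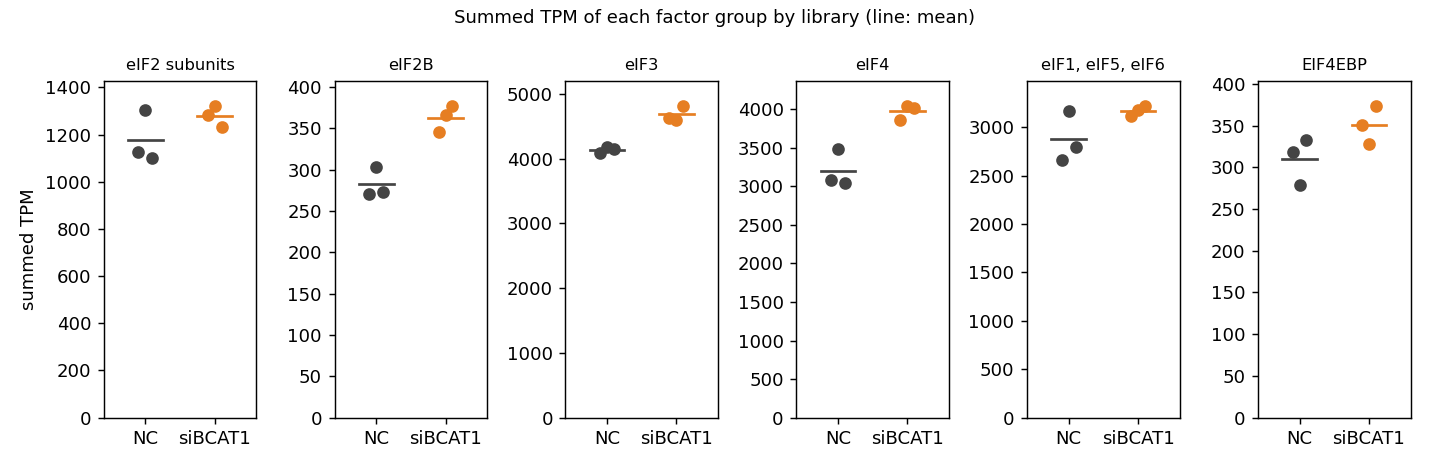
Summed TPM of the eIF2, eIF2B, eIF3 and eIF4 genes, of the eIF1, eIF5 and eIF6 families and of the EIF4EBP genes in each library (points, with lines at the group means; each axis starts at 0). The groups are apart for eIF2B, eIF3 and eIF4 and overlap for eIF2, for the eIF1, eIF5 and eIF6 families and for EIF4EBP. EIF4A1 alone covers the rise of eIF4.

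Summed over each factor, eIF2B was at 282 ± 18.2 TPM in NC and 363 ± 15.8 TPM in siBCAT1, eIF3 at 4141 ± 46.4 and 4684 ± 115 TPM, and eIF4 at 3201 ± 243 and 3972 ± 102 TPM (SD, n = 3 each). None of these sums overlapped between the groups. EIF4A1 alone was higher by 782 TPM on average, which covers the whole rise of the eIF4 sum. EIF2B2 was higher by 55.6 TPM, the larger part of the rise of the eIF2B sum. The eIF2 subunits summed to 1176.5 ± 111 TPM in NC and 1278 ± 44.7 TPM in siBCAT1, and the eIF1, eIF5 and eIF6 families to 2875 ± 263 and 3171 ± 54.8 TPM, with NC replicate 2 inside the siBCAT1 range for both. NC replicate 2 was also the highest NC library for eIF2B, eIF3 and eIF4.

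Among the 9 genes of the eIF1, eIF5 and eIF6 families 3 rose (33.3%, against 16.7% of all genes), with a median log2 fold change of 0.15. EIF5B, the GTPase that joins the ribosomal subunits, was at 54.8, 59.8 and 53.0 TPM in NC and at 79.4, 72.5 and 73.6 TPM in siBCAT1 (log2 fold change 0.42, SE 0.073, adjusted p = 0.00614). EIF1AX, the X-linked eIF1A that helps scanning, was at 102, 119 and 97.6 TPM in NC and at 129, 141 and 139 TPM in siBCAT1 (0.36, SE 0.084, adjusted p = 0.0192). EIF1B, a paralog of the start-codon gatekeeper EIF1, was at 23.1, 21.3 and 20.5 TPM in NC and at 26.8, 29.7 and 30.1 TPM in siBCAT1 (0.40, SE 0.084, adjusted p = 0.0135). The siBCAT1 libraries of all 3 genes lay above the NC libraries.

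EIF1 itself was at 501, 531 and 472 TPM in NC and at 591, 553 and 531 TPM in siBCAT1, touching at the edge (log2 fold change 0.15, adjusted p = 0.105), and its 7 pseudogene rows summed to 0.93 TPM. EIF5A, the hypusine-bearing factor that assists elongation and the most abundant member in NC, was at 1308, 1647 and 1462 TPM in NC and at 1486, 1581 and 1659.7 TPM in siBCAT1 (0.10, adjusted p = 0.411). EIF5A2 was at 9.80, 11.9 and 5.63 TPM in NC and at 10.2, 5.97 and 7.89 TPM in siBCAT1 (-0.14, 95% interval -0.78 to 0.51, adjusted p = 0.747). The ranges of these genes met or crossed, and EIF5A exceeded EIF5A2 at least 133-fold in every library. EIF6, which keeps the large subunit from joining too early, was higher in all siBCAT1 libraries (517 ± 39.5 against 573 ± 9.10 TPM, 0.15, adjusted p = 0.111) and passed without NC replicate 2 (0.20, adjusted p = 0.0474). EIF5, the GTPase-activating protein of eIF2 (0.20, adjusted p = 0.348), and EIF1AD, a protein with an eIF1A-like domain (0.13, adjusted p = 0.324), overlapped.

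Of the 3 eIF4E-binding proteins 1 fell, 1 rose and 1 did not pass, where 10.4% of all genes fell and 16.7% rose. EIF4EBP2 was the 1 member that fell, from 18.2, 16.1 and 16.7 TPM in NC to 12.2, 11.2 and 10.6 TPM in siBCAT1. Its groups did not overlap, the ratio of means was 0.667, and the log2 fold change was -0.54 (SE 0.094, 95% interval -0.77 to -0.32, adjusted p = 0.00628). EIF4EBP3, a weakly expressed gene, rose from 1.82, 2.43 and 1.82 TPM in NC to 3.65, 4.15 and 7.23 TPM in siBCAT1 (0.95, SE 0.24, adjusted p = 0.0244). Without NC replicate 1 or 3 or siBCAT1 replicate 2 that call was lost (0.90 to 1.04, adjusted p = 0.0571 to 0.0904), and reads could be shared with the readthrough transcript ANKHD1-EIF4EBP3, at 12.5 to 15.4 TPM in NC and 14.5 to 15.8 TPM in siBCAT1.

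EIF4EBP1, by far the most abundant of the 3, was at 298, 261 and 314 TPM in NC and at 335, 313 and 356 TPM in siBCAT1, overlapping at the edge (log2 fold change 0.20, 95% interval 0.01 to 0.40, adjusted p = 0.109). The ratio of EIF4EBP1 to EIF4EBP2 was 16.4, 16.2 and 18.8 in NC and 27.4, 27.9 and 33.5 in siBCAT1, and so the groups were apart. The ratio of EIF4EBP1 to EIF4E was 4.01 ± 0.998 in NC and 4.28 ± 0.312 in siBCAT1 (SD, n = 3 each) and overlapped.

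A list of 46 other genes of translation and its control, all but GSPT2 above the filter, moved in both directions: 6 rose (13.3%, against 16.7% of all genes), 5 fell (11.1%, against 10.4%) and the median log2 fold change was 0.10. DENR, the partner of MCTS1 in a complex related to EIF2D, rose from 26.5, 31.3 and 24.7 TPM in NC to 50.8, 55.2 and 51.2 TPM in siBCAT1 (0.91, SE 0.098, adjusted p = 0.00108), while MCTS1 did not pass (0.21, adjusted p = 0.20). PPP1R15A, the stress-induced phosphatase subunit that removes phosphate from eIF2, rose from 27.6, 24.5 and 32.3 TPM in NC to 47.5, 44.6 and 52.4 TPM in siBCAT1 (0.76, adjusted p = 0.00357). PPP1R15B, its constitutive counterpart, fell from 34.5, 33.2 and 30.2 TPM in NC to 24.6, 22.8 and 20.5 TPM in siBCAT1 (-0.51, adjusted p = 0.00794). The groups did not overlap for any of the genes of this list that rose or fell. The 4 eIF2 kinases, each with group means between 19.4 and 39.0 TPM, did not pass: EIF2AK1 (0.04, adjusted p = 0.689), EIF2AK2 (0.15, adjusted p = 0.234), EIF2AK3 (-0.23, adjusted p = 0.129) and EIF2AK4 (0.08, adjusted p = 0.659).

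Of the poly(A)-binding proteins, PABPC4 rose from 122, 159.9 and 132 TPM in NC to 192, 195 and 198 TPM in siBCAT1 (log2 fold change 0.51, adjusted p = 0.00939). The far more abundant PABPC1 fell from 843, 751 and 828 TPM in NC to 615, 589 and 653 TPM in siBCAT1 (-0.38, adjusted p = 0.00455). The poly(A)-binding proteins thus differed in direction, and so did the elongation factors. The exchange factor subunit EEF1D rose from 375, 439 and 402 TPM in NC to 557, 598 and 564 TPM in siBCAT1 (0.50, adjusted p = 0.00225). EEF1A2, which carries aminoacyl-tRNA, fell from 753, 772 and 763 TPM in NC to 599, 625 and 653 TPM in siBCAT1 (-0.29, adjusted p = 0.00431). EEF1G, another subunit of the exchange factor, fell from 2621, 2446 and 2603 TPM in NC to 2322, 2279.5 and 2302 TPM in siBCAT1 (-0.15, adjusted p = 0.0256). RPTOR, the mTORC1 scaffold that presents the 4E-binding proteins to mTOR, had the largest fall of the list, from 28.1, 27.9 and 28.3 TPM in NC to 18.5, 19.5 and 17.7 TPM in siBCAT1 (-0.58, adjusted p = 0.00199). ETF1, the release factor eRF1, rose from 51.5, 67.0 and 50.3 TPM in NC to 75.1, 70.7 and 71.2 TPM in siBCAT1 (0.37, adjusted p = 0.0491).

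Of the 47 members 32 overlap an annotated gene on the other strand. The library kit keeps strand, but whether strand was used in counting is not given in the sources used here, so reads of such partners may not be separated.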

How the data were processed

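RNA of 67R cells (3 NC and 3 siBCAT1 libraries) was sequenced from stranded mRNA libraries. Per the submitters' processing notes, reads were filtered with fastp, mapped with HISAT2 to GRCh38 and assembled with StringTie; versions and the annotation are not given in the sources used here. The authors deposited 1 TPM value per gene and library, not pooled, with a gene length. The study states gene set enrichment analysis of pathways for these data and names no test per gene. Groups and replicate numbers were taken from the sample titles. Values were transformed to log2(TPM + 1), and those 14286 genes whose mean reached 1 TPM were fitted with limma 3.58.1 (lmFit, eBayes with trend, two-sided, R 4.3.3) with Benjamini-Hochberg adjustment over all of them and a threshold of 0.05. The procedure was tested on simulated data. Tables were made in Python 3.11.15 (pandas 2.3.3, numpy 2.4.6) and figures in matplotlib 3.10.9. The closest libraries differed in 98.6% of the genes tested.

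The members and lists were chosen with earlier results of these data known. EIF4EBP1, EIF4EBP2 and EIF4EBP3 were kept as a separate group although their names end like those of pseudogenes. Values in every library were given for members past the threshold, for the most abundant gene of each factor group, for the 4E-binding proteins and for paralog pairs, and from the other list for the 5 largest rises and the 5 largest falls among genes past the threshold, which include PPP1R15A and PPP1R15B. The eIF2 kinases were named without values of single libraries. PAIP1 also rose and is outside that rule. Positions came from GENCODE 29 on GRCh38, and GC content from its transcripts closest in length to the deposited length, for 98.99% of the genes tested and all 47 members. Promoter windows came from a RefSeq table.

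The alternatives were no filter, a mean over 5 TPM, 0.1 as pseudocount, median-ratio scaling, quantile normalization, a replicate block, loess corrections for length or for GC content and length (span 0.5), the block with the length correction, limma without trend, a minimum log2 fold change of 0.5, EIF3C and EIF3CL summed, and each library left out. The block with the GC content and length correction was added after seeing the data.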

Additional observations from a re-analysis of the deposited data

How the results depend on the processing

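Of the 16 members past the threshold 10 passed under all 17 alternatives tried for single genes, and of the 31 others 19 passed under none and 12 under at least 1. Beside the changes given above, EIF4EBP3 did not pass with no filter, EIF1B not with the block, GC content and length correction, and EIF4A3 and EIF4EBP1 passed with the replicate block (adjusted p = 0.0334 and 0.0218). The count of members that rose (15) was 4 with a log2 fold change of at least 0.5. The share of all genes was not counted there, so whether 4 members are more than that share is not known. The count of members that rose was 9 to 17 with 1 library left out, lowest without siBCAT1 replicate 2. It was 10 with no filter, and 13 with median-ratio scaling, quantile normalization and the length correction. With the GC content and length correction and with limma without trend it was 12. Over all genes 1957 rose with median-ratio scaling, 2042 with quantile normalization and 2100 with the length correction, in place of 2382. The GC content and length correction gave 2164, and limma without trend 2090. The count of members that fell (1) was 2 at a mean of at least 5 TPM and with the length correction, and 4 with median-ratio scaling. It was 6 with quantile normalization and with the GC content and length correction. With 1 library left out it was 1 to 4, 2 without NC replicate 2 and 4 without NC replicate 3. The count of all genes that fell (1483) was 1302 at a mean of at least 5 TPM and 1805 with the length correction. It was 1802 with median-ratio scaling, 1865 with quantile normalization and 1882 with the GC content and length correction. In the last 2 settings members thus fell about as often as all genes. Over all genes 1607 rose and 960 fell without a filter, and with 1 library left out 1435 to 2276 rose and 796 to 1430 fell, the upper ends being without NC replicate 2 and the next highest 1592 and 981. Rises made up 61.6% of the calls over all genes as deposited and 52.1% with median-ratio scaling.

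The replicate numbers were not treated as pairs in the main fit, and the labels do not say whether they pair the samples. Deviations of same-numbered libraries correlated at 0.0844, 0.102 and 0.124, and those of differently numbered libraries at -0.0814 to -0.0134. Each library thus correlated best, though weakly, with its own number. The deviations were taken from the group means and cancel within each group, so the negative values follow from the positive ones. With the replicate block 18 members rose and 3 fell, with the block and length correction 15 rose and 6 fell, and with the block, GC content and length correction 14 rose and 6 fell, where 8 of the other translation genes fell in place of 5. The counts over all genes also differed from the 2382 that rose and 1483 that fell in the main fit. They were 2773 and 1795 with the block, and 2366 and 2047 with the block and length correction. With the block, GC content and length correction they were 2403 and 2066.

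The median log2 fold change of all members came to 0.084 with the length correction and to 0.0641 under the GC content and length correction, and that of the eIF1, eIF5 and eIF6 families (0.155) to 0.084 and 0.0972, each with and without the block. That of eIF2 was 0.109 with median-ratio scaling and 0.103 to 0.251 with 1 library left out. That of eIF2B was 0.273 with median-ratio scaling, 0.235 with quantile normalization, 0.266 with the length correction and 0.275 with the GC content and length correction, each of the corrections with and without the block, and 0.288 to 0.348 with 1 library left out. That of eIF3 was 0.112 with quantile normalization, 0.124 with the length correction and 0.0895 with the GC content and length correction, with and without the block. That of eIF4 changed sign, to -0.0242 with median-ratio scaling, -0.101 with quantile normalization, -0.0321 with the length correction, -0.0489 with the GC content and length correction, with and without the block, and ran from -0.0354 (without NC replicate 3) to 0.0563 with 1 library left out. That of EIF4EBP was -0.171 at a mean of at least 5 TPM, where EIF4EBP3 is left out. The cause of the other shifts was not tested.

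The sign also changed for 8 members that did not pass. EIF3H was at -0.00884 with median-ratio scaling, -0.0147 with quantile normalization, -0.0137 with the length correction and -0.0413 with the GC content and length correction, both corrections with and without the block. EIF4A2 took the eIF4 medians given above, since it is the middle gene of that group. EIF4E was at -0.00907 with quantile normalization and -0.0182 with the GC content and length correction, with and without the block. With 1 library left out the range was -0.0161 to 0.0719 for EIF3H, -0.00341 to 0.0697 for EIF4A2, -0.0354 to 0.193 for EIF4E, -0.0899 to 0.0191 for EIF2B5, -0.0576 to 0.0987 for EIF3J, -0.366 to 0.0563 for EIF4ENIF1, -0.0886 to 0.0558 for EIF4H and -0.415 to 0.0666 for EIF5A2. No depth is known, so no counting error limits a value.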

Other observations

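Members that rose had shorter transcripts than the rest, with a median deposited length of 1949 bases against 2479 bases for members that did not pass and 2711 bases for all genes tested with a GC value, while the median GC content was close to 49.6% in both sets of members and 49.3% in all genes. Among genes of the name EIF under the filter, EIF4E1B was listed at 0 in every library, and EIF2S3B and EIF5AL1 had means of 0.015 and 0.143 TPM. The row SENP3, next to EIF4A1, was at 91.0, 76.0 and 79.7 TPM in NC and at 103.1, 98.7 and 103.2 TPM in siBCAT1, so that its groups, like those of EIF4A1, did not overlap.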
